A study of Homo sapiens with 2 samples.

Results

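Genes of fatty acid oxidation and of the peroxisome were followed in HepG2, a human hepatocellular carcinoma line, with fluid shear stress (FSS) and without it (static culture). FSS is the frictional force that flowing liquid exerts along a cell. The genes were chosen by symbol as a list of 36, all of which were among the 11589 gene symbols of the deposited table. They comprised 17 genes of mitochondrial beta-oxidation, 6 of peroxisomal beta-oxidation, 12 PEX genes and PPARA. The list was selected on the presence of a listed FPKM value and with the FSS against static difference of these genes already known, so the counts below describe it and are no test of it. There were 2 libraries, 1 from cells under FSS for 8 h and 1 from static cells, both at passage 10 to 15 and in the same serum-supplemented medium, and each was a mix of 3 replicates. Since each group is a single library, no difference has a replicate check, and no p-value is given.

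Beta-oxidation shortens fatty acids by repeated cycles of oxidation, hydration, oxidation and thiolysis, and is a main source of energy for hepatocytes during fasting. Long-chain fatty acids enter mitochondria bound to carnitine, and the electrons released pass through the electron transfer flavoprotein to the respiratory chain. Peroxisomes oxidise very long-chain, branched-chain and bile acid precursors, and hand the shortened products on. PEX genes encode the peroxins, which build the peroxisomal membrane, import its enzymes and divide the organelle. PPARA is the fatty acid-sensing nuclear receptor that activates many of these genes in liver.

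Gene levels are given as FPKM (fragments per kilobase of transcript, scaled to mapped fragments), added up over the listed transcripts. Differences are log2 ratios of FPKM + 1, negative where FSS was lower. Folds on that scale are too small for genes of low level, and 1.5-fold was used to call a gene higher or lower. All 36 genes had at least 0.5 FPKM in at least 1 library. Total listed FPKM was 325712 for static and 323352 for FSS, read depth being unknown, and the log2 ratios of GAPDH and ACTB, used as reference genes, were 0.18 and 0.10. In bulk RNA, fewer cells of a type and less RNA per cell cannot be told apart. The median log2 ratio of all 11221 genes that passed the filter was -0.25. Values after subtraction of -0.23, the median over 7898 genes that reached 5 FPKM in 1 library, are called centred. Of 22 hepatocyte identity markers 5 were listed, namely FOXA1 (5.69 FPKM static, 7.41 FPKM FSS), CEBPA (2.16 and 0.755) and VTN (1.92 and 1.10), with AMBP and ASGR1. AMBP and ASGR1, a secreted and a surface product of hepatocytes, were both listed at 0 without FSS, and reached 0.0580 and 0.176 FPKM with it. The other 17 markers, ALB, AFP, APOA1 and HNF4A among them, were looked up without a match and were not analysed here. The label HepG2 could therefore not be checked on the genes that best define hepatocytes, and the 5 that were matched do not establish it. All values below are those of libraries labelled HepG2, with that doubt. Of 7 fibroblast and stellate markers 5 were listed, with summed levels of 44.8 FPKM in static and 15.5 FPKM in FSS cells, above the sums of 9.76 and 9.50 FPKM for the 5 hepatocyte markers. COL1A1, a fibrillar collagen chain, had 28.0 FPKM without FSS and 5.15 FPKM with it, and its log2 ratio of -2.24 was lower than that of any of the 36 genes. LUM, a matrix proteoglycan, had 11.9 and 6.71 FPKM, and DCN was listed at 0 in static cells. Of 7 leukocyte markers 2 were listed, CD14 and CD68, with summed levels of 1.70 and 6.06 FPKM. Of 6 endothelial markers CDH5 alone was listed, at 0.818 and 0.634 FPKM. The part of these cell type markers in the results was not tested.

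The bases before the gene start are shown for ACADM and CPT2, the genes with the lowest log2 ratios by gene sums. They are also shown for HADHB, because it shares its upstream region with HADHA. The sequences are those of RefSeq on GRCh38.p14, 5′ to 3′ on the strand of the gene, while the deposited table was made on hg19 and holds no coordinates. In ACADM (chr1:75724459-75724708, plus strand) and CPT2 (chr1:53196574-53196823, plus strand) capitals mark the GC box, GGGCGG on either strand. In HADHB (chr2:26244689-26244938, plus strand) capitals mark the 194 bases that also lie in the window of HADHA, which is transcribed the opposite way from a start 307 bases away.
ACADM: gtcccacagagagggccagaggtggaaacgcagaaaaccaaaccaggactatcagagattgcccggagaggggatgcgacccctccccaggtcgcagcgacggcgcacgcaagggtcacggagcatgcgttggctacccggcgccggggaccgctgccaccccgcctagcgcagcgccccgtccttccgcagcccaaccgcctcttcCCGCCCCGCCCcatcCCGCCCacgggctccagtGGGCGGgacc
CPT2: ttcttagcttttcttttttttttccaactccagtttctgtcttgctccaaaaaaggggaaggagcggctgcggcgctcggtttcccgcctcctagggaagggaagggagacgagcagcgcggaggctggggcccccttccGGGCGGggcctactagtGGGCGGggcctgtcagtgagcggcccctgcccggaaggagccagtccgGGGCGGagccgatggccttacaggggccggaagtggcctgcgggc
HADHB: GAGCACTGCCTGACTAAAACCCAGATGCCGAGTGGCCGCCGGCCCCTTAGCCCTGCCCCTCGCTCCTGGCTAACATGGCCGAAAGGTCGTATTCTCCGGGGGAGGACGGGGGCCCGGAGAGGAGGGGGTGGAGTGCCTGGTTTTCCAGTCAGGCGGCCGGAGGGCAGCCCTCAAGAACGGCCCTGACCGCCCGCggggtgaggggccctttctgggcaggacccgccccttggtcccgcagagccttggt

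Of the 36 genes 31 had a RefSeq window of 250 bases before to 50 bases after a gene start, 43 windows in all. A GC box was present in 34 of these 43 windows (79.1%) and in 27 of the 31 genes, against 45.0% of all 35116 windows and 67.7% of the windows of genes that passed the filter. ACADM had 4 matches in the bases shown and CPT2 had 3. The palindromic NRF1 site was in 4 windows (9.30%), those of ABCD3, ACAD9, ETFB and PPARA, against 10.5% of the windows of genes that passed the filter. The half-site AGGTCA of nuclear receptors was in 0 of the 43 windows and in 10.1% of those of genes that passed the filter. The longer elements built on it, its direct repeat with 1 base between for PPAR with RXR, and TCAAGGTCA for the ERR receptors, were likewise in 0 windows, and in 0.0392% and 0.180% of the others. These windows are short, so an absent motif says only that its letters are not in them.

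All 36 genes had a lower level in FSS than in static cells as deposited, but after centring SCP2 and ACOX3 were slightly above 0. As deposited, 65.8% of all genes that passed the filter lay below 0. Of the 36 genes 21 were at least 1.5-fold lower and 0 were at least 1.5-fold higher. In the background of all genes that passed the filter, 29.5% were at least 1.5-fold lower and 10.5% at least 1.5-fold higher (29.4% and 11.5% of genes with at least 5 FPKM in 1 library). The median log2 ratio of the 36 genes was -0.66, beside -0.25 for all genes, and 34 of the 36 lay below the latter. After centring, 12 were lower and 0 higher, beside 17.9% and 17.8% of all genes, and the median was -0.43. Centred values were below 0 in 34 of the 36 and in 50.9% of all genes. The summed level of the 36 genes was 960 FPKM without FSS and 583 FPKM with FSS, or 0.295% and 0.180% of the listed FPKM. Single levels ran from 2.32 FPKM (PEX7) to 149.8 FPKM (HADHA) in static cells, and from 1.01 FPKM (PPARA) to 77.8 FPKM (HADHA) in FSS cells. The order of the genes was largely kept, with a Spearman rho of 0.946 between the libraries across the 36 genes, which share these libraries and are not replicates.

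**Figure D1:**
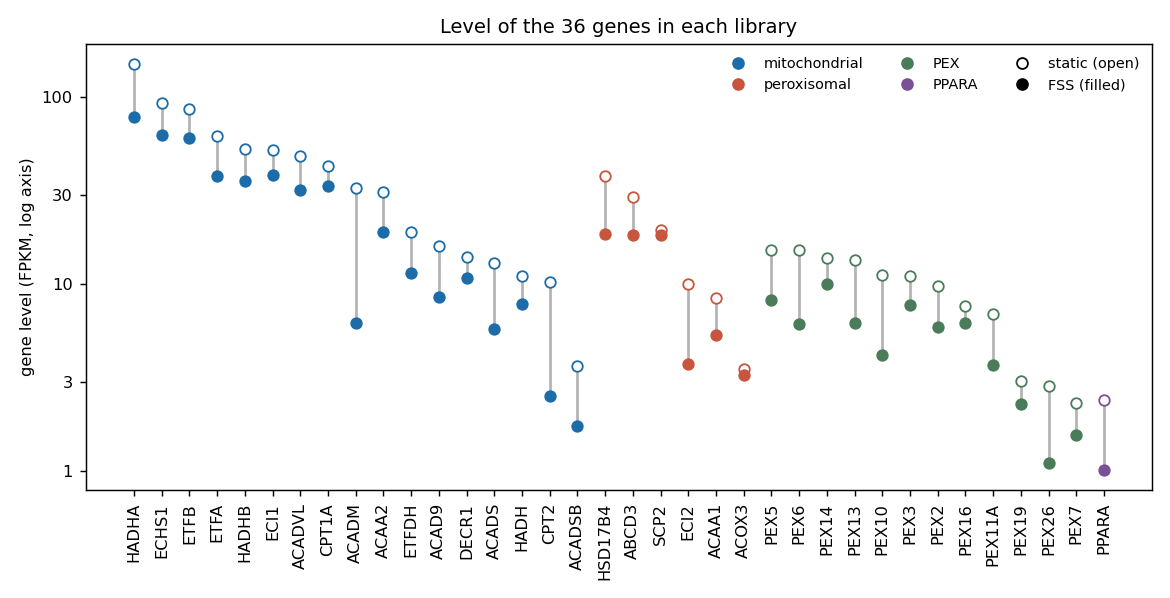
Level of each of the 36 genes in FPKM, on a log axis, in the static library (open circles) and the FSS library (filled circles), with 1 library per group and genes ordered by static level within each class. Every filled circle lies under its open circle, and the gap is widest for ACADM and CPT2 and narrowest for SCP2 and ACOX3.

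To see which steps of mitochondrial beta-oxidation carried the difference, the 17 genes were taken in the order in which a fatty acid meets their products. Of these genes 10 were at least 1.5-fold lower and 0 higher (5 and 0 after centring), and the median log2 ratio was -0.67. The shares of all genes were 29.5% lower and 10.5% higher (17.9% and 17.8% after centring). Their summed level was 737 FPKM without FSS and 452 FPKM with FSS. The transferases of the carnitine shuttle differed in size of effect. CPT1A, the outer membrane transferase that controls entry, was at 42.9 FPKM without FSS and 33.6 FPKM with FSS, a log2 ratio of -0.34 that is within 1.5-fold. CPT2, the inner membrane transferase that restores the acyl-CoA, was at 10.2 and 2.51 FPKM, 3.19-fold lower. A static level of CPT2 of 4.55 FPKM came from a single transcript, CPT2-207, that was listed at 0 in FSS cells, and without transcripts listed at 0 in either library the log2 ratio was -0.93 instead of -1.67.

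The acyl-CoA dehydrogenases, which catalyse the first oxidation and differ in chain length, were at least 1.5-fold lower in 5 of 5 genes, and in 4 of 5 without transcripts listed at 0 in either library. ACADM (ENSG00000117054.13_3), for medium chains, was at 32.7 FPKM without FSS and 6.19 FPKM with FSS. Its log2 ratio of -2.23, a 4.68-fold lower value, was the lowest of the 36 genes by gene sums and ranked 74 from the bottom among 11221. Without transcripts listed at 0 in either library the log2 ratio of ACADM was -1.02. On that scale it was no longer the lowest of the 36, with PEX10 at -2.18. ACADS, for short chains, was at 12.9 and 5.73 FPKM, 2.07-fold lower. The enzyme for very long chains, ACADVL, had the highest level of the group but the smallest difference, at 48.2 and 31.7 FPKM with a log2 ratio of -0.59, just past the 1.5-fold mark, and of -0.57 without transcripts listed at 0 in either library, which is within it. ACAD9, which also serves in the assembly of respiratory complex I, was at 15.9 and 8.54 FPKM. ACADSB, whose main substrate comes from isoleucine, was at 3.66 and 1.73 FPKM. After centring, ACADM, ACADS and ACAD9 remained at least 1.5-fold lower, while ACADVL and ACADSB had centred log2 ratios of -0.36 and -0.54.

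Of the 5 genes of the later steps of the cycle, 2 were at least 1.5-fold lower, HADHA and ACAA2, beside 29.5% of all genes. After centring only HADHA was, beside 17.9% of all genes, and ACAA2 had a centred log2 ratio of -0.44. The difference from the dehydrogenases was not tested. HADHA and HADHB encode the subunits of the trifunctional protein of the inner membrane, which hydrates, oxidises and cleaves long-chain acyl-CoA. HADHA was at 149.8 FPKM without FSS and 77.8 FPKM with FSS, 1.91-fold lower, and HADHB at 53.0 and 35.7 FPKM, 1.47-fold lower. By gene sums the subunits lay on either side of the 1.5-fold mark. By the highest transcript of each library HADHB was past the mark too, with a log2 ratio of -0.67. That value set HADHB-202 in static cells (15.3 FPKM) against a different transcript, HADHB-209, in FSS cells (9.26 FPKM). HADHB-202 itself had a log2 ratio of -1.16 and HADHB-209 of 0.07. For shorter chains, the hydratase ECHS1 was at 93.1 and 63.0 FPKM, the dehydrogenase HADH at 11.0 and 7.84 FPKM and the thiolase ACAA2 at 30.9 and 19.0 FPKM. Of these 3 only ACAA2 passed 1.5-fold, with a log2 ratio of -0.67. ECI1 and DECR1, which prepare unsaturated fatty acids for the cycle, were both within 1.5-fold, at 52.3 and 38.3 FPKM and at 13.9 and 10.8 FPKM. The electron transfer genes were grouped closely around the 1.5-fold mark. Of the flavoprotein subunits, ETFA had 61.7 and 37.8 FPKM, and ETFB 85.9 and 60.4 FPKM. ETFDH, which passes the electrons to ubiquinone, was at 19.0 and 11.4 FPKM, with a log2 ratio of -0.69 beside -0.69 for ETFA and -0.50 for ETFB.

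**Figure D2:**
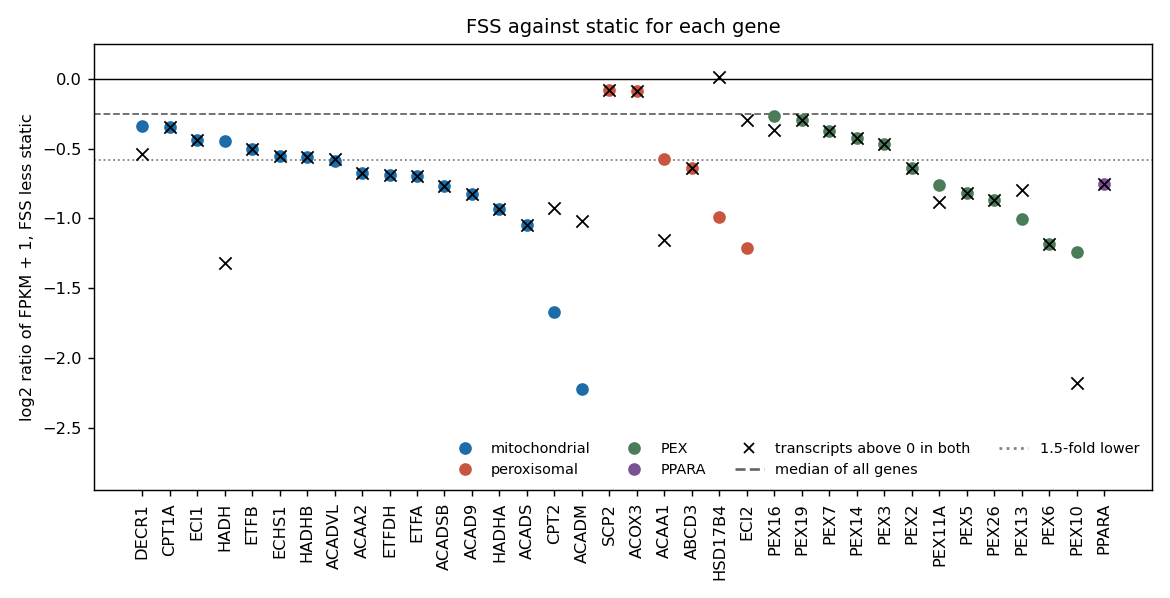
Log2 ratio of FPKM + 1 in FSS less static for each of the 36 genes (coloured circles), and the same from transcripts above 0 in both libraries (crosses), with the median of all genes (dashed, -0.25) and the mark of 1.5-fold lower (dotted). Circles of 21 genes lie at or under the dotted line, and the crosses of ACADM, HSD17B4, PEX10, ECI2 and HADH lie farthest from their circles.

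Peroxisomal beta-oxidation held both the members least different between the libraries and some of the most different. Of 6 genes 3 were at least 1.5-fold lower and 0 higher (2 and 0 after centring), and the median log2 ratio was -0.61. Of all genes 29.5% were lower and 10.5% higher (17.9% and 17.8% after centring). ABCD3, a transporter of the peroxisomal membrane for fatty acyl-CoA, was at 29.2 FPKM without FSS and 18.4 FPKM with FSS, 1.56-fold lower. ACOX3, an oxidase of branched chains, was low in both libraries, at 3.52 and 3.24 FPKM. HSD17B4, the bifunctional enzyme of the next steps, was at 37.6 and 18.5 FPKM, 1.98-fold lower, but the direction was not kept when transcripts listed at 0 in either library were left out. Of the thiolases, ACAA1 was at 8.44 and 5.33 FPKM, within 1.5-fold, and SCP2, which encodes both a thiolase and a lipid carrier, at 19.4 and 18.3 FPKM. SCP2 and ACOX3 had log2 ratios of -0.08 and -0.09, which were 0.16 and 0.14 after centring. ECI2, an isomerase found in peroxisomes and mitochondria, was at 9.98 and 3.74 FPKM, 2.32-fold lower, with a log2 ratio of -0.29 when transcripts listed at 0 in either library were left out. Counted with the mitochondrial genes instead, ECI2 left 2 of 5 peroxisomal genes lower. Without transcripts listed at 0 in either library 2 of the 6 genes were lower, beside 28.1% of all genes on that scale. The peroxisomal median was then -0.19, beside -0.23 for all genes, so the peroxisomal result depends on such transcripts.

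The PEX genes were compared by the steps of peroxisome assembly. Of 12 genes 7 were at least 1.5-fold lower and 0 higher (5 and 0 after centring), and the median log2 ratio was -0.70. Among all genes 29.5% were lower and 10.5% higher (17.9% and 17.8% after centring). Summed levels of the PEX genes were 112 FPKM without FSS and 63.0 FPKM with FSS. The 7 lower genes were 6 of the 8 for import and receptor recycling, and PEX11A. PEX5, the receptor of most imported enzymes, was at 15.3 and 8.22 FPKM, 1.77-fold lower. PEX7, the receptor of a smaller set, was at 2.32 and 1.55 FPKM, within 1.5-fold. Of the docking proteins, PEX13 was at 13.5 and 6.20 FPKM, 2.01-fold lower, and PEX14 at 13.7 and 9.96 FPKM, within 1.5-fold. The RING ubiquitin ligases that tag the receptor for export were both lower, PEX10 at 11.2 and 4.16 FPKM and PEX2 at 9.76 and 5.89 FPKM. PEX6, an ATPase that pulls the receptor out of the membrane, was at 15.1 and 6.11 FPKM, and PEX26, its membrane anchor, at 2.83 and 1.10 FPKM, which were 2.27-fold and 1.82-fold lower. PEX11A, which promotes peroxisome division, was at 6.93 and 3.69 FPKM.

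PEX3, PEX16 and PEX19, which place proteins in the peroxisomal membrane, were all within 1.5-fold, although PEX19 was past it by its highest transcript, with a log2 ratio of -0.72. PEX3 was at 11.1 and 7.70 FPKM, PEX16 at 7.62 and 6.17 and PEX19 at 3.03 and 2.28, static before FSS. Their log2 ratios of -0.47, -0.27 and -0.30 were -0.24, -0.03 and -0.06 after centring. PEX16 and PEX19 were close to the middle of all genes, with 48.9% and 46.9% of genes at or below them, and PEX3 was lower, with 35.8%. The import genes PEX7 and PEX14, at -0.38 and -0.43, were less low than PEX3, so these groups overlapped, and the difference between them was not tested. PPARA itself was low, at 2.40 FPKM without FSS and 1.01 FPKM with FSS, a log2 ratio of -0.76.

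Each listed transcript was examined, since a gene sum can hide changes among transcripts. Without transcripts listed at 0 in either library, an alternative chosen after seeing the data, 20 of the 36 genes were lower and 0 higher, beside 28.1% and 10.9% of all genes. The 36 genes had 126 listed transcripts, of which 42 had at least 5 FPKM in at least 1 library. Of these 42, 25 were at least 1.5-fold lower and 0 higher, beside 32.6% and 19.7% of all transcripts at that level. Transcript names are given as the table has them, and no class was assigned to a transcript because the table carries no transcript identifier. Of 31 genes with more than 1 transcript, 10 (32.3%) had a different leading transcript in the libraries, beside 26.3% of all such genes.

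In HSD17B4 and ACADM a single transcript made up most of the static sum and was listed at 0 in FSS cells. HSD17B4-220 was at 22.9 FPKM in static cells, 60.9% of the sum, whereas HSD17B4-222 was at 9.07 and 10.2 FPKM. The transcripts of HSD17B4 that were above 0 in both libraries summed to 14.7 FPKM without FSS and 14.9 FPKM with FSS. ACADM-203 was at 19.1 FPKM in static cells, 58.5% of the sum. The rest of ACADM stayed at least 1.5-fold lower, at 13.6 and 6.19 FPKM, a log2 ratio of -1.02, and ACADM-202 alone was at 12.1 and 4.89 FPKM. These were the 2 member transcripts that had at least 5 FPKM in static cells and were listed at 0 in FSS cells, and 2.77% of all transcripts at that level in 1 library were listed at 0 in the other. An exact 0 from an abundance estimate can be a failed assignment between overlapping transcripts, and this was not tested.

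Other genes showed an exchange of transcripts with smaller levels. PEX5-202 was at 8.32 FPKM without FSS and 0.949 FPKM with FSS, while PEX5-201 was at 1.00 and 4.82 FPKM. HADH-201 was at 9.45 and 3.16 FPKM, while HADH-211 was listed at 0 without FSS and reached 4.02 FPKM with it. In PEX10, PEX10-202 was at 6.51 and 0.586 FPKM and PEX10-204 was listed at 0 and at 2.47 FPKM. ACAA1-202 made up 97.4% of the static sum of ACAA1 and 38.7% of its FSS sum, with the rest spread over transcripts under 1 FPKM. Without transcripts listed at 0 in either library, HADH, ACAA1 and PEX10 were lower than by their sums, with log2 ratios of -1.32, -1.15 and -2.18. In contrast, HADHA-201, CPT1A-201 and ACAA2-201 each held over 90% of their gene in both libraries, and the single listed transcripts of ECHS1, ACADS, ACADSB, ACAD9 and PEX14 leave no such exchange. Exons of 8 of the 36 genes overlap those of another gene over at least 10% of their length in GENCODE release 29, among them PEX10 (39.1%, RER1), ECI2 (27.1%, C6orf201), ACAA1 (19.7%, DLEC1) and CPT2 (11.0%). Strand was not given in the sources used here, so reads of such overlapping parts cannot be told apart.

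**Figure D3:**
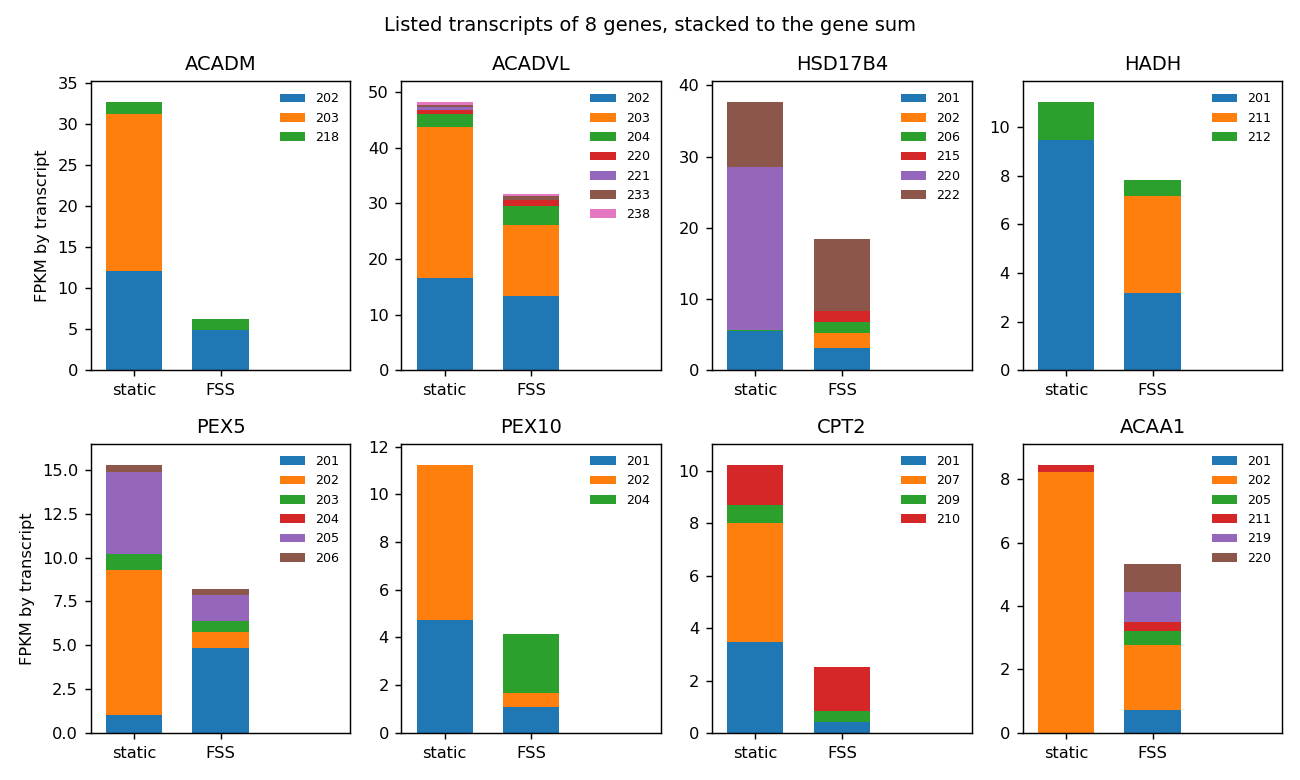
FPKM of each listed transcript of ACADM, ACADVL, HSD17B4, HADH, PEX5, PEX10, CPT2 and ACAA1, stacked to the gene sum, in the static and the FSS library, with the number of the transcript in the legend. ACADM-203 and HSD17B4-220, at 19.1 and 22.9 FPKM in static cells, have no bar in FSS cells.

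Genes of the same pathways outside the list of 36 were then examined, in 7 lists that share no gene with it. Of 115 such genes 94 were listed and passed the filter. In these, 45 (47.9%) were at least 1.5-fold lower and 2 (2.13%) higher, and the median log2 ratio was -0.54. Of all genes that passed the filter, 29.5% were lower and 10.5% higher. After centring 26 of the 94 were lower and 8 higher, beside 17.9% and 17.8% of all genes. Further peroxisomal oxidation genes were all under 0, 6 of 12 at least 1.5-fold lower and 0 higher, with a median of -0.57. ACOT8, a peroxisomal thioesterase, was at 3.35 FPKM static and 1.20 FPKM FSS, AMACR, which racemises branched acyl-CoA, at 1.91 and 0.541 FPKM, and CROT, a carnitine transferase, at 4.21 and 1.91 FPKM. Other peroxisomal enzymes included 7 of 13 lower and 0 higher, with a median of -0.59. NUDT7, which hydrolyses coenzyme A, was at 4.49 and 0.788 FPKM, NUDT12 at 2.90 and 0.857 FPKM and IDH1, a maker of NADPH in cytosol and peroxisomes, at 94.9 and 44.0 FPKM. Genes of peroxisome formation and division had 6 of 14 (42.9%) lower and 0 higher and a median of -0.45. After centring 2 of these 14 were lower and 1 higher, beside 17.9% and 17.8% of all genes. The centred count of lower genes is thus near the share of all genes and no result about this list. ACBD5, a tether to the endoplasmic reticulum, was at 17.2 and 7.60 FPKM. PXMP2, a membrane channel, was at 26.9 and 12.5 FPKM and TYSND1, a processing protease, at 8.04 and 4.21 FPKM. Without transcripts listed at 0 in either library the log2 ratio of ACBD5 was -2.82 instead of -1.08. That of PXMP2 was -0.70 instead of -1.04.

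Of 17 further genes of mitochondrial acyl-CoA oxidation 10 were lower and 0 higher, and their median was -0.63, while GCDH and ACOT9 had log2 ratios above 0, of 0.55 and 0.35. GCDH and ACOT9 were named after their values were seen. ACAD10 was at 6.18 and 0.947 FPKM, PCCA, a subunit of propionyl-CoA carboxylase, at 7.14 and 2.35 FPKM and ACAT1, the thiolase of acetoacetyl-CoA, at 91.7 and 41.5 FPKM. Without transcripts listed at 0 in either library the log2 ratio of ACAD10 was -1.07 instead of -1.88. That of PCCA was -1.76 instead of -1.28. All 5 listed ketone body genes were at least 1.5-fold lower, with a median of -1.12. BDH1 and BDH2, dehydrogenases of hydroxybutyrate, had 6.81 and 2.24 FPKM (BDH1) and 5.31 and 1.81 FPKM (BDH2), and ACAT1 is in this list as well. Of the activation and carnitine genes 5 of 16 (31.2%) were lower and 1 higher, a share near the 29.5% of all genes, with 5 log2 ratios above 0 and a median of -0.33. ACSL1, which activates fatty acids, was at 2.28 FPKM in static cells and was listed at 0 in FSS cells, SLC27A2 was at 45.5 and 22.3 FPKM and CRAT at 13.4 and 6.75 FPKM. The 1 higher gene, ACBD3, a Golgi protein with an acyl-CoA binding domain, was at 21.2 and 37.8 FPKM.

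Partners and targets of PPARA had 7 of 18 (38.9%) lower and 1 higher (5.56%), beside 29.5% and 10.5% of all genes. After centring 4 were lower and 2 higher, beside 17.9% and 17.8% of all genes. The median was -0.37, and -0.14 after centring. The difference of this list from all genes was not tested. PPARGC1A, the coactivator that drives mitochondrial genes, was at 3.79 FPKM without FSS and 0.0317 FPKM with FSS. ESRRA, the orphan receptor that works with it, was at 29.9 and 10.1 FPKM, and TXNIP, an inhibitor of thioredoxin that was also in this list, at 39.5 and 1.32 FPKM. Its log2 ratio, -4.13, was the lowest among 11221 genes. The 1 higher gene was ANGPTL4, a fasting-induced inhibitor of lipoprotein lipase, at 1.04 and 3.21 FPKM, while PDK4, another gene induced in fasting, was at 19.5 and 6.68 FPKM. ANGPTL4 and PDK4 were named after their values were seen. PPARG and PPARD were within 1.5-fold, with log2 ratios of -0.39 and -0.11.

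**Figure D4:**
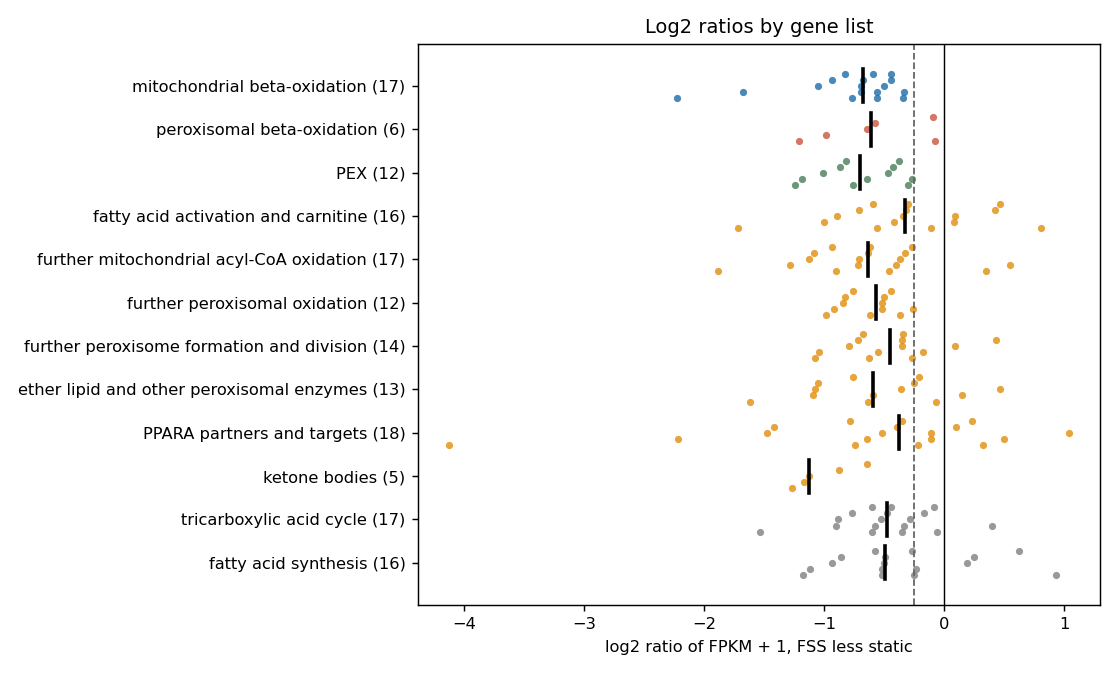
Log2 ratio of FPKM + 1 in FSS less static for each gene of the 3 classes of members, the 7 further lists and 2 lists for comparison, 1 point per gene that passed the filter, with the number of genes in brackets, a bar at each median and the median of all genes dashed (-0.25). The medians of all lists lie left of the dashed line, from -1.12 for ketone bodies to -0.33 for activation and carnitine genes.

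For comparison, 2 further lists of nearby metabolism were drawn up after the table was at hand. The enzymes of the tricarboxylic acid cycle, which burns the acetyl-CoA made by beta-oxidation, had 6 of 17 (35.3%) lower and 0 higher and a median of -0.48. Genes of fatty acid synthesis, the opposing pathway, had 4 of 16 (25.0%) lower and 2 higher and a median of -0.50. Both shares are near the 29.5% of all genes, so they are no result about these lists. The 17 mitochondrial beta-oxidation genes, with 10 lower and a median of -0.67, lay under both lists in these libraries as deposited. After centring 5 of these 17 were lower, beside 3 of 17 tricarboxylic acid cycle genes, 4 of 16 synthesis genes and 17.9% of all genes. The centred medians of the 3 lists were -0.44, -0.25 and -0.26. With 1 library per group the difference between lists was not tested.

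**Figure D5:**
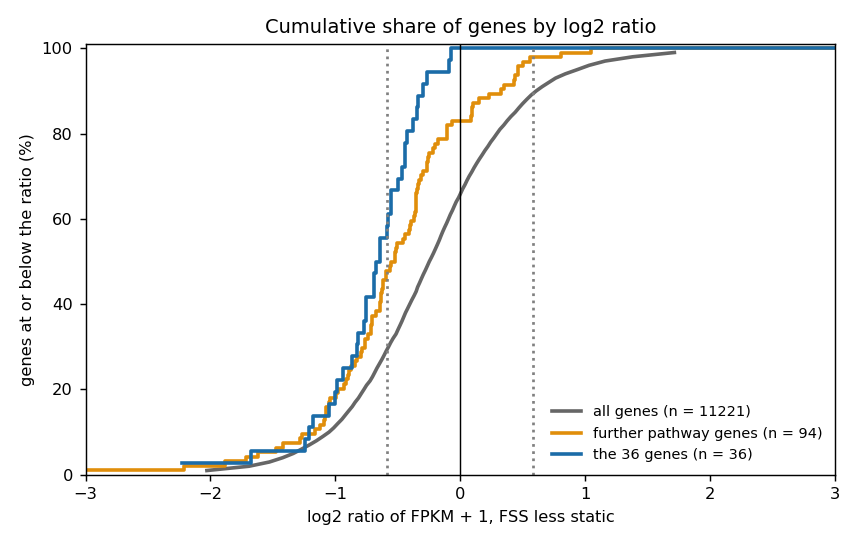
Percent of genes at or below each log2 ratio of FPKM + 1 in FSS less static, for the 36 genes, the 94 further pathway genes and all 11221 genes that passed the filter, with 1.5-fold marked by dotted lines. The line of the 36 genes reaches 100% before 0, where that of all genes is at 65.8%.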

How the data were processed

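RNA was measured in 2 libraries, FSS and static, each a mix of 3 replicates, grouped by the treatment label. The authors deposited FPKM per transcript for 34714 transcripts. Tools in the submitters' processing notes, given without roles, were STAR 2.5.2b, StringTie, HISAT2 2.0.5 and cutadapt, with the build hg19. By the study's methods StringTie estimated abundance and Ballgown gave FPKM, kept from 0.5, although the deposited rows include lower values and 0. Read depth is unknown, counts cannot be recovered, and there were 0 value columns without a sample. FPKM was summed by symbol, filtered at 0.5 FPKM in 1 library (11221 genes) and compared as log2(FPKM + 1). A gene was called at 1.5-fold. Members and lists were chosen with earlier results of these data known. All members were described, and in each further list the 3 genes with the largest absolute log2 ratio were named. The steps were tested on simulated data. Alternatives were pseudocounts of 0.1, 5 or none, centring, rescaling to a common sum and the highest transcript of each library. Further ones were a fold of 2, a minimum of 5 FPKM or none, and ECI2 as mitochondrial. Leaving out transcripts listed at 0 in either library was added after seeing the data. Python 3.11.15, numpy 2.4.6, pandas 2.3.3, scipy 1.17.1 and matplotlib 3.10.9 were used.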

Additional observations from a re-analysis of the deposited data

How the results depend on the processing

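No paired analysis was possible because each group had 1 library, and no replicate could be left out. The count of 0 genes at least 1.5-fold higher among the 36 held under every alternative run, with all 36 log2 ratios under 0 except those of SCP2 (0.16) and ACOX3 (0.14) after centring and of HSD17B4 (0.015) without transcripts listed at 0 in either library. Centring left 5 mitochondrial, 12 member and 26 further pathway genes lower and 8 further genes higher, with medians of -0.44 (mitochondrial), -0.38 (peroxisomal), -0.43 (members) and -0.30 (further genes), and the share of lower genes among all called genes went from 73.7% to 50.1%. A pseudocount of 5 left 6 mitochondrial, 4 PEX, 12 member and 21 further genes lower and 1 further gene higher, with medians of -0.40 for PEX and -0.34 for further genes, while 14.3% of all genes were lower. At 2-fold, 3 mitochondrial, 1 peroxisomal, 3 PEX, 7 member and 17 further genes were lower and 1 further gene higher, beside 11.4% of all genes lower. A filter at 5 FPKM, with fewer genes tested, left 1 further gene higher. Without transcripts listed at 0 in either library the peroxisomal median was -0.19. The other 128 list values stayed within 1.5 times of those reported. Among single genes, centring and a pseudocount of 5 each left 9 fewer calls, and taking the highest transcript added 5 and lost 1. Without transcripts listed at 0 in either library, ACADVL and ECI2 lost the call, HADH and ACAA1 gained it, and HSD17B4 reversed. The precision of single values is limited by the unknown depth.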
